A study of Rattus norvegicus with 6 samples.

Results

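The genes described here encode proteins that the liver makes and releases into blood plasma, and their transcripts were measured in the renal cortex of rats. The members are a list of 34 gene symbols, among 45433 genes, unnamed transcripts or unnamed probes on the array. They were chosen because earlier results of these arrays showed albumin and similar genes varying between animals of the same group, so the variation between animals is given below as a description, with no test. The study compared 3 male Sprague-Dawley rats (Crl:CD(SD)) given tricresyl phosphate, an organophosphate that serves in plastics and as a flame retardant, at 200 mg/kg/day for 4 weeks, with 3 such rats given its vehicle, corn oil, for 4 weeks. All animals were 5 weeks old when bought and shared a basal diet and tap water. Each animal gave 1 sample of cortex RNA and 1 Agilent array read in a single dye, so replicates are separate animals, and the spread between samples of the same kidney was not measured. In bulk tissue such as this, fewer cells of a type and less RNA per cell cannot be told apart.

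Hepatocytes supply most plasma proteins: carriers of hormones, haem and lipids, clotting factors, protease inhibitors and complement. Their genes are read in liver under transcription factors of the HNF1, HNF4, FOXA and C/EBP families. The kidney filters small plasma proteins and takes them back up in the proximal tubule, which moves protein and not transcript. The proximal tubule also uses HNF1 and HNF4 factors and transcribes some genes of this kind itself.

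The level of a gene is given throughout as log2 of the processed spot signal relative to the 75th percentile over that array's probes, so that 0 is the brightness below which 75% of the array's probes lie. A level compares animals for the same gene and does not rank genes, since probes differ in how they bind. Of the 34 members, 33 had a probe that could be matched, and no probe was matched to Azgp1. A gene entered the comparison if its probe was flagged as well above background by the scanner software in 3 animals or more, which 29 members did, and 26 were above background on all 6. Orm1, which encodes the acute phase protein orosomucoid, F9, which encodes clotting factor IX, and C9, a pore-forming component of complement, were well above background in only 2 animals, tricresyl phosphate replicate 3 and corn oil replicate 2. The share of all genes above background in no animal but these was not counted, here or for the lists below. Their arrays had 43197 and 43823 probes above background, and that of corn oil replicate 3 had 43678. Cps1, the first enzyme of the urea cycle and the only member whose product stays inside the cell, was not well above background in any animal.

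Those 2 animals stood apart from the other 4 across many of the members, and group differences of the named members are given below with and without them. Among the 31637 genes tested, they were the 2 highest animals for 5.13%, and for 0.196%, or 62 genes, both were at least 1 log2 unit above the next animal. Among the 29 tested members the counts were 16 and 12. Corn oil replicate 1 was alone on slide 1, with the other 5 arrays on slide 2, and it was the lowest animal for 13 of the 29 members, against 15.4% of all genes. For corn oil replicate 1, slide and animal cannot be told apart. Between 41503 and 43823 of the 61537 non-control probes of an array cleared background, saturation was seen on no spot, and the median signal per array was 102.6 to 133.2 over a local background of 33.0 to 41.0.

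The promoters of 4 members are shown because they belong to both kinds of pattern described below. Alb and Gc were much higher in tricresyl phosphate replicate 3 and corn oil replicate 2 than in the other animals, while Plg and Ambp differed by less than 1 log2 unit between any of the 6. Each window runs from 250 bases before to 50 bases after the gene's start in RefSeq on build GRCr8, 5′ to 3′ on the strand of the gene. Capitals mark matches to 3 short motifs on either strand.
Alb, chr14:17906930-17907229, minus strand: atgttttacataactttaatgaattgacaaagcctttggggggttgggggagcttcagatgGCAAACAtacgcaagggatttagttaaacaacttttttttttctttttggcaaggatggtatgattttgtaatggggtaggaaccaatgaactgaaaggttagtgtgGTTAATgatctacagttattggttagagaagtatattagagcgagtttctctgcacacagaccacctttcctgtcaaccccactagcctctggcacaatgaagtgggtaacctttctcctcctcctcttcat
Gc, chr14:18916005-18916304, plus strand: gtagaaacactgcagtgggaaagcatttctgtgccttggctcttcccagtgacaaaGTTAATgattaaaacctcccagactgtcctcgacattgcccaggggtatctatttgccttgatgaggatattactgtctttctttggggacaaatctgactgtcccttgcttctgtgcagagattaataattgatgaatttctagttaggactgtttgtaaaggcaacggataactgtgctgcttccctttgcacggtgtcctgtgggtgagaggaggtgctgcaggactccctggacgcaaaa
Plg, chr1:50915357-50915656, minus strand: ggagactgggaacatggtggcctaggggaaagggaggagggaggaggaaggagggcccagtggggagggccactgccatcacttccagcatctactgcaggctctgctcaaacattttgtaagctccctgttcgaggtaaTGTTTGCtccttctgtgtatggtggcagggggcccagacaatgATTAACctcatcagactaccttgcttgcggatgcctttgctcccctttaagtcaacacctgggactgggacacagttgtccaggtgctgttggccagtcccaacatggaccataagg
Ambp, chr5:81593808-81594107, minus strand: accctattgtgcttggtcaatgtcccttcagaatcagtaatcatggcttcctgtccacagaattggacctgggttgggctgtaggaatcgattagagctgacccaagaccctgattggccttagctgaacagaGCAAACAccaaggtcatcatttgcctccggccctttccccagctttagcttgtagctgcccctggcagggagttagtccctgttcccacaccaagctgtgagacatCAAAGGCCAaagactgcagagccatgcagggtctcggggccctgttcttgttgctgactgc
The motifs searched were GTTAAT, of the HNF1 type, CAAAGNNCA, of the HNF4 type, and TGTTTGC, a core of FOXA sites, and none of them contains another. Alb held the HNF1 motif at −82 and the FOXA core at −189, counted in bases from its start. Plg held the same pair of motifs, at −67 and −110. Gc held the HNF1 motif at −194, and Ambp held the FOXA core at −117 and the HNF4 type motif at −11. Genes of either pattern therefore carried these letters. Of the 26 members with a window in the table, 7 held the HNF1 motif, 6 the HNF4 type motif and 5 the FOXA core. Across all 33469 windows the shares were 7.45%, 6.08% and 4.88%. A member was counted if any of its windows matched, while these shares are of single windows, so they are not like for like. A match is a description of the letters and not of binding.

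**Figure D1:**
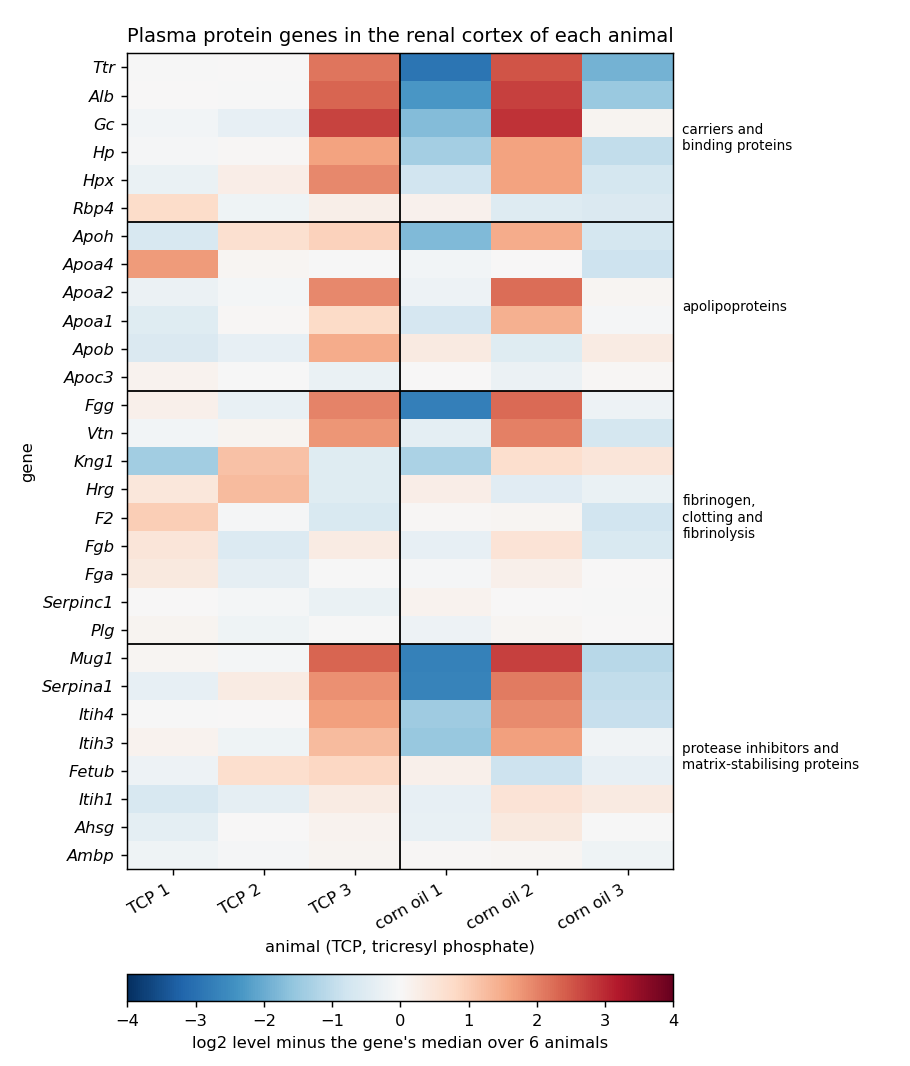
Each row is a tested member, grouped by role, and each column an animal, tricresyl phosphate at the left and corn oil at the right. Colour gives the level minus the gene's median over the 6 animals, in log2 units. Alb, Ttr, Mug1 and similar genes are red in tricresyl phosphate replicate 3 and corn oil replicate 2 and blue in corn oil replicate 1, while Apoc3, Plg, Serpinc1 and Ambp stay near white.

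Carriers and binding proteins varied most. Alb, which encodes albumin, the main carrier of plasma, was at −0.11, −0.15 and 2.21 in tricresyl phosphate replicates 1, 2 and 3, against −2.47, 2.62 and −1.61 in corn oil replicates 1, 2 and 3. Both groups thus held a high animal, and the groups overlapped. The 3 animals given tricresyl phosphate spanned 2.36 log2 units, a 5.14-fold range, while the 3 given corn oil spanned 5.09, a 34.1-fold range. A pair of further Alb probes gave the same order at the top, with levels of −1.25 and −1.16 in tricresyl phosphate replicate 3, against −1.18 and −0.82 in corn oil replicate 2. These probes spanned less over the 6 animals, 3.72 and 3.19 log2 units, so the size of the range depends on the probe.

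Ttr, which encodes transthyretin, the carrier of thyroid hormone and of retinol-binding protein, was at −0.63, −0.62 and 1.51 in tricresyl phosphate replicates 1 to 3, against −3.53, 1.88 and −2.52 in corn oil replicates 1 to 3. Its range of 5.41 log2 units across the 6 animals had the same 2 animals at the top and corn oil replicate 1 at the bottom. The vitamin D-binding protein gene Gc was at −3.08, −3.29 and −0.25 with tricresyl phosphate and at −4.70, −0.06 and −2.84 with corn oil. Hp, which encodes the haemoglobin-binding protein haptoglobin, was at −1.26, −1.19 and 0.38 with tricresyl phosphate and at −2.58, 0.38 and −2.21 with corn oil. For Gc and Hp alike, 1 animal of each group was far above the other 2. Hpx, which encodes the haem-binding protein hemopexin, had the same pattern, at −4.0, −3.46 and −1.81 with tricresyl phosphate and −4.48, −2.11 and −4.42 with corn oil.

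Rbp4, which encodes the retinol-binding protein that circulates with transthyretin, did not share this pattern. It was at 1.79, 0.87 and 1.28 in tricresyl phosphate replicates 1 to 3, against 1.22, 0.54 and 0.46 in corn oil replicates 1 to 3. Its highest animal was tricresyl phosphate replicate 1, and corn oil replicate 2, the highest for Alb and Ttr, was near its lowest.

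The apolipoproteins, which build and steer lipoprotein particles, split in the same way. Apoa2, a protein of high-density lipoprotein, was at −5.66, −5.51 and −3.50 with tricresyl phosphate and at −5.63, −3.17 and −5.32 with corn oil, and was not well above background in replicate 1 of either group. Apoa1, the main protein of the same particle, was at −4.62, −4.09 and −3.36 with tricresyl phosphate and −4.81, −2.70 and −4.17 with corn oil. Apoh, whose product binds anionic phospholipids, was at −3.17, −1.89 and −1.62 with tricresyl phosphate and −4.30, −1.05 and −3.22 with corn oil. The same 2 animals were the highest for Apoa1, Apoa2 and Apoh, by over 1 log2 unit for Apoa2 alone.

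Apoc3, an inhibitor of lipoprotein lipase, was almost level, at 3.13, 2.99 and 2.74 with tricresyl phosphate and 3.02, 2.78 and 3.04 with corn oil. Apoa4, known from intestinal lipoproteins, was highest in tricresyl phosphate replicate 1, at 0.39, with −1.21 and −1.32 in replicates 2 and 3, against −1.42, −1.28 and −2.12 with corn oil. Apob, the structural protein of low-density lipoprotein, was highest in tricresyl phosphate replicate 3, at 0.10, with −1.96 and −1.70 in replicates 1 and 2, against −1.02, −1.86 and −1.06 with corn oil. Apoa1, Apoc3 and Apoa4 are neighbours on chromosome 8, and corn oil replicate 2 was the highest for Apoa1 while tricresyl phosphate replicate 1 was the highest for Apoc3 and Apoa4.

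Fibrinogen, the precursor of the clot, is built from 3 chains whose genes Fgg, Fga and Fgb are neighbours on chromosome 2. Fgg was at −4.80, −5.28 and −2.99 in tricresyl phosphate replicates 1 to 3, against −7.72, −2.72 and −5.18 in corn oil replicates 1 to 3, where corn oil replicate 1 was not well above background. Fga was at 0.97, 0.23 and 0.57 with tricresyl phosphate and at 0.53, 0.77 and 0.60 with corn oil. Fgb was at 0.35, −0.70 and 0.17 with tricresyl phosphate and at −0.46, 0.39 and −0.76 with corn oil. Across the 5 animals in which it was well above background, the gamma chain gene spanned 2.56 log2 units, and its level in corn oil replicate 1 is imprecise. The genes of the alpha and beta chains, above background in all 6, spanned 0.74 and 1.15.

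Vtn, which encodes the adhesive and clot-stabilising protein vitronectin, had the same 2 high animals as Fgg, at −3.58, −3.35 and −1.70 with tricresyl phosphate and −3.86, −1.46 and −4.16 with corn oil. Plg, which encodes plasminogen, the precursor of the protease that dissolves fibrin, was level, at 0.88, 0.61 and 0.75 with tricresyl phosphate and 0.56, 0.84 and 0.81 with corn oil. A further Plg probe was not well above background in any animal. Serpinc1, which encodes antithrombin, was level too, at 6.51, 6.39 and 6.23 with tricresyl phosphate and 6.64, 6.49 and 6.48 with corn oil.

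F2, which encodes prothrombin, was at 1.99, 0.96 and 0.42 with tricresyl phosphate and 1.08, 1.08 and 0.25 with corn oil. Hrg, which encodes the heparin-binding histidine-rich glycoprotein, was highest in tricresyl phosphate replicate 2, at 3.14, with 2.32 and 1.39 in replicates 1 and 3, against 2.12, 1.42 and 1.62 with corn oil. Kng1, the kininogen gene, was highest in the same animal, at −1.03, with −3.58 and −2.66 in replicates 1 and 3, against −3.46, −1.52 and −1.71 with corn oil. The related gene Kng2 had the same order of animals, with tricresyl phosphate at −2.99, −0.58 and −2.23 and corn oil at −2.83, −1.17 and −1.36, and the probes of both may read either transcript. None of these 3 members had tricresyl phosphate replicate 3 and corn oil replicate 2 as its 2 highest animals.

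Among protease inhibitors and proteins that stabilise matrix, Mug1, a murinoglobulin that traps proteases, was at −2.34, −2.48 and −0.07 in tricresyl phosphate replicates 1 to 3, against −5.11, 0.32 and −3.52 in corn oil replicates 1 to 3. Its range of 5.43 log2 units was the widest of the 29 tested members by the probe used for each, just ahead of Ttr at 5.41. A dimmer Ttr probe spanned 6.26 and a dimmer Mug1 probe 5.85, neither well above background in corn oil replicate 1. A further Mug1 probe was not well above background in any animal. Mug1 has close copies in the rat, and its probe may read them as well. Serpina1, which encodes alpha-1-antitrypsin, the inhibitor of neutrophil elastase, was at −4.11, −3.43 and −1.93 with tricresyl phosphate and −6.46, −1.68 and −4.76 with corn oil, where corn oil replicate 1 was not well above background. Both genes had the high animal of each group in common with Alb.

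The genes Itih4, Itih3 and Itih1, neighbours on chromosome 16, belong to the inter-alpha-trypsin inhibitor heavy chain family, which is known for stabilising the hyaluronan matrix. Itih3 was at −3.29, −3.60 and −2.17 with tricresyl phosphate and −4.97, −1.80 and −3.58 with corn oil. Itih4 was at −2.68, −2.66 and −1.04 with tricresyl phosphate and −4.11, −0.77 and −3.58 with corn oil. Itih1 was at −3.95, −3.66 and −3.00 with tricresyl phosphate and −3.64, −2.76 and −2.97 with corn oil. The first 2 shared the high animals of Alb, while for Itih1 corn oil replicate 3 stood just above tricresyl phosphate replicate 3. Ambp, which encodes the precursor of alpha-1-microglobulin and of bikunin, the light chain of the inter-alpha-inhibitor complex, was level, at 0.74, 0.86 and 1.01 with tricresyl phosphate and 0.93, 0.98 and 0.72 with corn oil.

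Ahsg, which encodes fetuin-A, an inhibitor of calcification, gave different pictures by probe. The probe with the highest level was at −0.98, −0.57 and −0.45 with tricresyl phosphate and −0.88, −0.18 and −0.60 with corn oil, a range of 0.80. Its second probe was at −5.55, −4.23 and −2.34 with tricresyl phosphate and −6.61, −1.83 and −5.32 with corn oil, a range of 4.78, and the third had a range of 4.15. The count of genes with a narrow range therefore depends, for Ahsg, on the probe. Fetub, which encodes the related fetuin-B and lies between Hrg and Ahsg on chromosome 11, was at −1.04, −0.18 and −0.01 with tricresyl phosphate and −0.65, −1.67 and −1.18 with corn oil. Fetub had the smallest unadjusted limma p of the members, 0.0779, with a difference of 0.76 ± 0.36 (SE, n = 3 each) and an adjusted p of 0.811, and its groups overlapped.

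The 29 tested members fell into 4 patterns by their values. In 12 of them (Alb, Ttr, Gc, Hpx, Hp, Apoa2, Fgg, Vtn, Mug1, Serpina1, Itih3 and Itih4) tricresyl phosphate replicate 3 and corn oil replicate 2 were both at least 1 log2 unit above the next animal. Apoa1 and Apoh had the same 2 animals on top by less. Another 6 were narrow, with ranges of 0.29 to 0.80 log2 units (Apoc3, Fga, Plg, Serpinc1, Ambp and Ahsg by its brightest probe). Of these, Ambp and Ahsg also had the same 2 animals on top, by 0.04 and 0.12 log2 units. The other 9 had ranges of 1.15 to 2.56 log2 units and other animals at the top. The median range over the 29 members was 2.49 log2 units, against 0.47 over all genes tested, of which 84.5% had a range under 1. By role, the median range was 3.80 for the 6 carriers, 2.42 for the 8 inhibitors and matrix-stabilising proteins, 2.30 for the 6 apolipoproteins and 1.73 for the 9 clotting and fibrinolysis genes. Since the members were chosen with these patterns known, the counts describe them and test nothing.

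**Figure D2:**
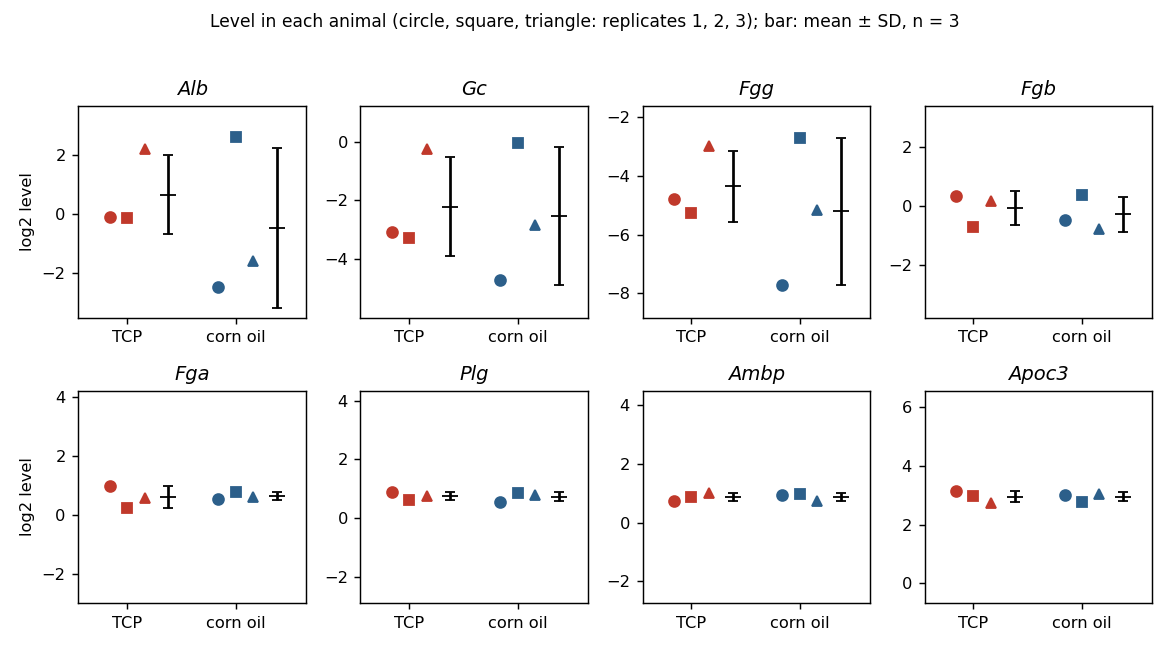
Levels of 8 members in each animal, on the log2 scale relative to the 75th percentile of the array, with tricresyl phosphate (TCP) at the left and corn oil at the right of each panel. Points are animals, bars are the mean ± SD of 3 animals, and every y axis spans the same number of log2 units. Alb, Gc and Fgg have 1 high animal in each group, Fgb varies less, and Fga, Plg, Ambp and Apoc3 lie close together in all 6.

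No member passed the test between the groups. The comparison asks which cortex transcripts differ after 4 weeks of tricresyl phosphate, and limma with Benjamini-Hochberg adjustment over all 31637 genes gave 0 genes past an adjusted p of 0.05, which is 0% of genes higher and 0% lower. At an unadjusted limma p under 0.05, 0 of the 29 members were higher and 0 lower, against 1.63% and 3.86% of all genes. The groups did not overlap for 0 members, against 3.85% of all genes higher and 7.95% lower with tricresyl phosphate. By direction alone, 21 members had a higher and 8 a lower mean with tricresyl phosphate, against 12891 higher and 18736 lower over all genes. The median difference of the members was 0.33 log2 units, against −0.04 over all genes, and without corn oil replicate 1 it was 0.02. Adjusted limma p-values of the 29 members ran from 0.811 to 0.993.

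The widest members had the widest errors. Alb averaged 0.65 ± 1.35 (SD, n = 3) with tricresyl phosphate and −0.49 ± 2.72 (SD, n = 3) with corn oil, a difference of 1.14 ± 1.42 (SE) with an adjusted limma p of 0.876. Ttr averaged 0.09 ± 1.23 with tricresyl phosphate and −1.39 ± 2.88 with corn oil (SD, n = 3 each), a difference of 1.48 ± 1.46 (SE) with an adjusted limma p of 0.850. For both genes the error was about as large as the difference. The differences of Mug1 and Serpina1 were both 1.14, with SEs of 1.45 and 1.25 and adjusted limma p-values of 0.879 and 0.861. Those of Fgg and Apoh were 0.85 ± 1.30 and 0.63 ± 0.87 (SE), with adjusted limma p-values of 0.901 and 0.889, and Vtn differed by 0.28 ± 0.84 (SE), at 0.952. With normexp background correction and quantile normalization the differences were smaller, at 0.54 for Mug1, 0.40 for Serpina1, 0.065 for Fgg, 0.34 for Apoh and 0.15 for Vtn, and with the mean of its probes Alb differed by 0.69.

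The named members without that pattern had smaller errors. This did not hold for every member without it, since the SE of Kng1 was 0.79. Rbp4 differed by 0.58 ± 0.30 (SE) and Apoa4 by 0.90 ± 0.50 (SE), each with an adjusted limma p of 0.811. The differences of Apoc3, Plg and Ambp were 0.01 ± 0.14, 0.01 ± 0.12 and −0.01 ± 0.12 (SE), with adjusted limma p-values of 0.993, 0.989 and 0.987. The last 3 had SEs under 0.15 log2 units, about an order of magnitude below that of Alb.

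The fit was also run with tricresyl phosphate replicate 3 and corn oil replicate 2 left out, which leaves 2 animals a group. For the widest genes this takes out the highest animal of each group, so the rest are closer together by construction. The mean of the tricresyl phosphate pair was then the higher for these genes, but the pairs overlapped for Fgg and Gc. Alb then differed by 1.91 ± 0.32 (SE), at an adjusted limma p of 0.808. Ttr then differed by 2.41 ± 0.37 (SE), at an adjusted limma p of 0.789. Without the 2 animals the differences of Mug1, Serpina1, Fgg, Apoh, Vtn and Apoa4 were 1.90, 1.84, 1.41, 1.23, 0.54 and 1.37. Those of Rbp4, Apoc3, Plg and Ambp were 0.49, 0.03, 0.06 and −0.03. No member passed the threshold there either. The 2 animals left out were picked by these same genes, and 1 of the 2 corn oil animals left is corn oil replicate 1, so this difference also sets slide 2 partly against slide 1. Within slide 2 alone, with all 5 of its arrays, the differences of Alb, Ttr and Serpina1 were 0.15, 0.41 and 0.058, and those of Fgg, Apoh, Vtn and Mug1 were −0.41, −0.092, −0.069 and −0.035.

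**Figure D3:**
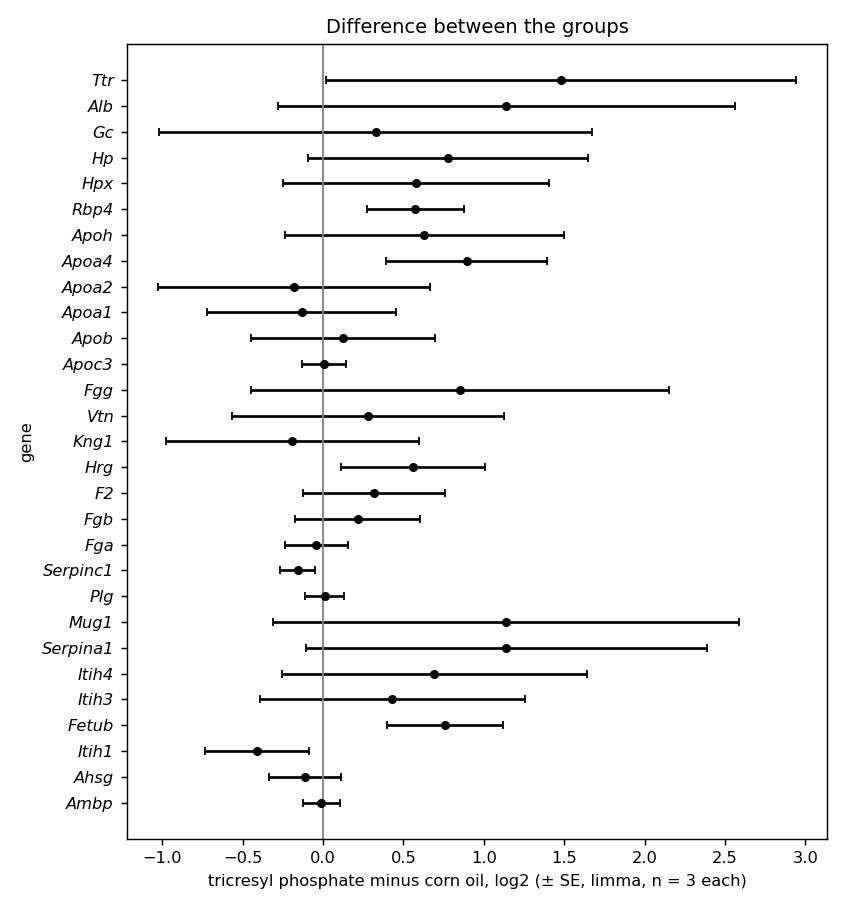
Difference between tricresyl phosphate and corn oil in log2 units for each tested member, with bars of 1 SE from limma, grouped by role. The bars of Alb and Mug1 are wide and cross 0, that of Ttr is as wide and ends just above 0, and Apoc3, Plg and Ambp have short bars at 0.

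Other genes known from liver were read for the same animals. Of 67 other plasma protein genes, 58 had a probe and 45 were tested. Tricresyl phosphate replicate 3 and corn oil replicate 2 were the 2 highest animals for 14 of the 45, and by at least 1 log2 unit for 2. Another 5 (Serpina6, C4bpa, C8a, F7 and Crp) were well above background within those 2 animals only, not necessarily in both. At an unadjusted limma p under 0.05, 3 were higher and 3 lower with tricresyl phosphate, and 0 passed after adjustment. The protease inhibitor gene Serpina3m was at −7.44, −4.41 and −5.66 with tricresyl phosphate, well above background in 1 of 3 animals, and at −4.91, −3.32 and −7.88 with corn oil, above it in 2 of 3. Its highest animal was corn oil replicate 2 and its second was tricresyl phosphate replicate 2. Apoc1, an apolipoprotein gene, was at −2.41, −2.39 and −0.67 with tricresyl phosphate and −4.54, −0.20 and −3.96 with corn oil. The acute phase inhibitor gene Serpina3n was at −2.78, −0.90 and −0.89 with tricresyl phosphate and −2.77, 0.61 and −3.39 with corn oil.

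A list of hepatocyte enzymes and transporters, which also held the serpin gene Serpina11, had the same animals at its top in part. Of 34 genes, 24 were tested, and tricresyl phosphate replicate 3 and corn oil replicate 2 were the 2 highest for 9. Cyp3a2, a cytochrome P450 of male rat liver, was at −4.56, −4.18 and −1.42 with tricresyl phosphate and −7.75, −1.93 and −7.95 with corn oil. Cyp2c13, another male-specific P450, was at −4.92, −4.55 and −2.25 with tricresyl phosphate and −7.71, −2.62 and −6.60 with corn oil. For both, 1 of 3 corn oil animals was well above background, against 3 of 3 animals given tricresyl phosphate. Cyp2c11 differed from them, with tricresyl phosphate replicates at −3.34, −0.87 and −2.48 and corn oil replicates at −2.80, −0.37 and −2.93.

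Cyp8b1, Hal, Slco1b2, Akr1c14 and Akr1d1 belong to bile acid, histidine and steroid metabolism and liver uptake. They were well above background within those 2 animals only, not necessarily in both, and Cyp1a2 and Tat in no animal. The summed signal of the 24 genes, in multiples of the array's 75th percentile, was 35.3 to 37.6 with tricresyl phosphate and 36.7 to 40.9 with corn oil. That sum rests mostly on genes bright in cortex, such as Aldh1l1, at 4.20 to 4.43 over the 6 animals. Dim genes such as Cyp3a2 and Cyp2c13 add little to it, so it does not follow their variation between animals. Hepatocyte markers thus moved with the members in part of the list, and their part in the members' values was not tested.

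Regulators and markers of other processes and cell types were counted in the same way. Of 11 tested regulators of the HNF, FOXA and related families, 1 had those 2 animals on top, and none by 1 log2 unit. Foxa3 and Prox1 were above background within those 2 animals only, not necessarily in both, and Foxa2, Onecut1 and Nr5a2 in no animal. The count was 2 of 17 for acute phase and IL-6 signalling genes and 2 of 12 for tubular injury markers, again none by 1 log2 unit. It was 0 of 14 for proximal tubule markers, 0 of 9 for glomerulus markers and 0 of 8 for medulla and collecting duct markers. It was also 0 of 6 for adrenal, 0 of 7 for adipocyte, 0 of 5 for exocrine pancreas and 0 of 10 for blood cell markers. Over all genes tested the share was 5.13%. The 2 acute phase genes were Saa4 and Serpina3n, which were also counted among the other plasma protein genes. Saa4 fell just short of the 1 log2 unit, at 0.99. Of the 11 adrenal markers, 6 were well above background on all 6 arrays, among them Cyp21a1, Cyp17a1 and Th, and 4 on none (Cyp11b1, Star, Mc2r and Dbh). Of the 9 adipocyte markers with a probe, 7 were above it on all 6, among them Adipoq and Fabp4, and Lep on none. Of the 12 exocrine pancreas markers, 5 were above it on all 6, among them Prss2 and Cel, and 6 on none. Cela1 was above it within tricresyl phosphate replicate 3 and corn oil replicate 2 only, not necessarily in both. The summed signal of the proximal tubule markers was 2196 to 2580 with tricresyl phosphate and 2495 to 2673 with corn oil, and all 14 were well above background in every animal.

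By treatment, none of these lists had a gene past the adjusted threshold in limma. At an unadjusted limma p under 0.05, the genes that were higher or lower with tricresyl phosphate numbered 3 and 3 of 45 other plasma protein genes, 1 and 0 of 24 hepatocyte enzymes, 0 and 2 of 14 proximal tubule markers, 0 and 3 of 10 blood cell markers, and 1 and 0 each for the medulla, adrenal and adipocyte lists. The regulator, acute phase, injury, glomerulus and pancreas lists had 0 in both directions. Median differences were −0.05 for other plasma proteins, −0.09 for hepatocyte enzymes, 0.001 for regulators, 0.15 for acute phase genes, −0.01 for injury markers, −0.12 for proximal tubule, −0.03 for glomerulus, 0.09 for medulla, 0.03 for adrenal, 0.12 for adipocyte, −0.02 for pancreas and −0.22 for blood cell markers.

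**Figure D4:**
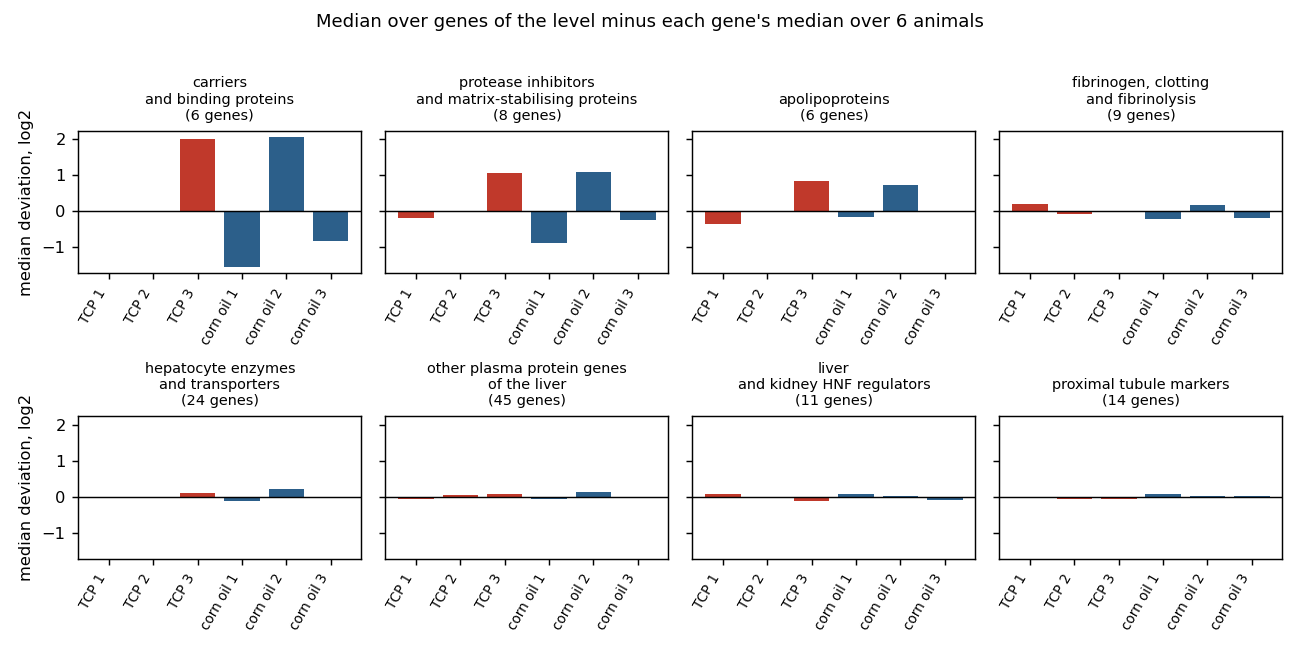
For 4 member roles and 4 other lists, bars give the median over tested genes of the level minus the gene's own median over the 6 animals, in log2 units, with tricresyl phosphate (TCP) animals left of corn oil animals. The carriers stand at 2.02 in tricresyl phosphate replicate 3 and 2.06 in corn oil replicate 2, while proximal tubule markers lie between −0.08 and 0.08 in every animal.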

How the data were processed

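RNA of renal cortex from 6 rats, 3 given tricresyl phosphate and 3 given corn oil per the labels, was hybridised in 1 colour (Cy3). The deposited intensity values came from Agilent Feature Extraction 10.7.1.1 per the file headers, 10.7 per the submitters' processing notes: a background-subtracted processed signal per spot with flags. The authors' value table equals that intensity divided by 1 number per array (coefficient of variation of the ratio at most 0.00125%), so its scale is linear. Its column medians lie between 0.1094 and 0.1152.

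The 1439 control spots were left out and 77 outlier spots set missing. Probes were named by unversioned accession through RefSeq's gene table (GRCr8, while the headers name rn4): 28206 had 1 symbol and 33331 none. Values were log2 processed signal minus the array's 75th percentile. Probes well above background on at least 3 of 6 arrays were kept (43099), 1 per gene by the highest mean, giving 31637 genes, 12432 with a symbol. Groups were compared with limma 3.58.1 (lmFit, eBayes, R 4.3.3), two-sided, Benjamini-Hochberg over all genes, threshold 0.05. The fit was tested on simulated data.

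Members and lists were chosen with earlier results of these data known. Tests are given for Alb, for the 2 widest and the narrowest tested members of each role, and for any with groups that do not overlap or an unadjusted p under 0.05, of which there were none. Fetub was added after its values were seen, as were the 4 patterns. The 3 genes of widest range are named from the lists of other plasma proteins and hepatocyte enzymes. Alternatives were quantile and normexp (offset 50) normalization, the authors' table, other filters, probe means, another variance model, slide and replicate blocks, and leaving out arrays.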

Additional observations from a re-analysis of the deposited data

How the results depend on the processing

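No member passed the threshold under any alternative run, and the lowest adjusted limma p of a member lay between 0.696 and 0.945 across them. The count of all genes past the threshold was 0, but 2 under normexp with quantile normalization and 2 under the trended robust variance model, and 0 to 1 when each array was left out in turn (1 without tricresyl phosphate replicate 2 and 1 without replicate 3). The members' median difference of 0.33 was 0.02 with the slide as a block, 0.16 under normexp, 0.33 with the replicate number as a block, 0.02 when corn oil replicate 1 was left out and 0.55 when corn oil replicate 2 was. It was 0.10 without tricresyl phosphate replicate 3, and 0.54 when that animal and corn oil replicate 2 were both left out. Leaving out each array gave 0.02 to 0.55.

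Among named members, 10 values changed sign under alternatives other than leaving out a single array, and 14 when each array was left out in turn. The 2 counts share values, since the slide block gives the same fit as leaving out corn oil replicate 1. With the slide as a block, Apoh was at −0.092, Fgg −0.41, Mug1 −0.035, Plg −0.078, Vtn −0.069 and Ambp 0.017. Under normexp Ambp was at 0.013 and Plg −0.016, under quantile normalization Ambp was at 0.001, and with probe means Apoc3 was at −0.032. The slide block removes corn oil replicate 1, so it has 1 animal fewer; the cause of the other changes was not tested. Counted over the named members, the counts of genes past the threshold and the members' median difference together, 136 values were classed as unchanged. For a named member this meant the same direction and side of the threshold. For a count it meant the same or a similar count, and for the median a shift under 0.777 log2 units. That limit is larger than the median difference of 0.33 itself, so a fall to 0.02 was classed as unchanged. With adjusted limma p-values of 0.811 or more, a member could hardly change side of the threshold. The number of unchanged values therefore says little. Of the other values, 10 were reversed and 2, both counts of all genes, had moved. Leaving out each array gave 0.15 to 2.69 for Alb, 0.41 to 3.11 for Ttr, −0.035 to 2.68 for Mug1, 0.06 to 2.45 for Serpina1, −0.41 to 2.10 for Fgg, −0.092 to 1.53 for Apoh, −0.31 to 1.13 for Vtn, 0.34 to 0.82 for Rbp4, 0.34 to 1.20 for Apoa4, −0.082 to 0.11 for Apoc3, −0.078 to 0.079 for Plg and −0.088 to 0.056 for Ambp.

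Over all genes, equal replicate numbers showed little sign of pairing: deviations of same-numbered animals from their group means correlated at 0.087, −0.051 and −0.044. The replicate block called 0 members, as did the main fit, so that count does not bear on pairing. With the block the SE of Rbp4 was 0.129, against 0.301, and that of Ambp 0.135, against 0.117. With 3 animals a group and ranges of up to 5.43 log2 units, the arrays limit the precision of the widest genes. Orm1, F9, C9, and Fgg and Serpina1 in corn oil replicate 1, were limited by signal over background.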

Other observations

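Of the 62 genes for which tricresyl phosphate replicate 3 and corn oil replicate 2 were both at least 1 log2 unit above the next animal, 36 had a symbol. Of these, 12 were members, 4 stood in the other lists and 20 in none. The genes named here were chosen after their values were seen. Several of the 20 are known from liver, among them Cyp2c7, a cytochrome P450, and Fabp1, the liver fatty acid-binding protein. So are Obp3, Mup4 and Mup5 of the major urinary protein family, whose close copies a probe may not separate. The 20 also held Slco1a6, Gucy1b2, Hnmt and Erp27, which are not counted here as known from liver. The rest of the 62 had no symbol and were not identified. Fabp1 was at −2.41, −1.94 and −0.27 in tricresyl phosphate replicates 1 to 3, against −4.14, 0.23 and −3.73 in corn oil replicates 1 to 3. Obp3 was at 0.35, −0.04 and 2.34 with tricresyl phosphate and −2.77, 2.55 and −0.66 with corn oil. Mup5 was at −1.13, −1.58 and 0.77 with tricresyl phosphate and −5.01, 1.21 and −2.62 with corn oil. Cyp2c7 was at −6.27, −5.68 and −2.91 with tricresyl phosphate and −6.50, −2.67 and −6.77 with corn oil. Corn oil replicate 1 was the lowest animal for Fabp1, Obp3 and Mup5, as it was for Alb, and corn oil replicate 3 for Cyp2c7.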
